A study of Mus musculus with 4 samples.

Results

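The keratins described here are Krt7, Krt8, Krt18, Krt19, Krt20 and Krt23, which build the intermediate filaments of simple, single-layered epithelia. They were taken by name from a fixed list, each represented by its brightest probe set on average, and all 6 of the 6 listed genes were measured, among 12394 genes in all. The study used 4 Affymetrix mouse arrays, with 1 sample on each, of proximal intestinal epithelium of C57BL/6 mice aged 4 to 6 weeks. The stem group (2 arrays) held Lgr5(hi) cells sorted by flow cytometry from mice labelled wild type. The enterocyte group (2 arrays) held EDTA-isolated villus cells of conditional Atoh1 knockout mice, in which the intestinal epithelium had lost this factor of the secretory lineages. Tamoxifen at 1 mg per day for 5 days, with a wait of 5 days to leave a villus of enterocytes, is listed for every sample, also the wild-type ones. The Cre line and the number of mice behind each array are not given in the sources used here. Arrays of a group are biological replicates per the labels. The limma p-values rest on the spread between the 2 arrays of a group, pooled over both groups and moderated over all genes. The groups differ at once in cell type, in genotype and in how cells were isolated, and these cannot be told apart.

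Keratins are obligate heteropolymers: an acidic type I chain pairs with a basic type II chain, and the pairs assemble into filaments that anchor at desmosomes and carry mechanical load. Of the 6 genes, Krt7 and Krt8 encode type II chains and Krt18, Krt19, Krt20 and Krt23 type I chains. In the gut, Krt8 is the main type II partner, Krt18 and Krt19 are its type I partners along the crypt and villus, and Krt20 is known as a keratin of differentiated villus cells. Krt7 is better known from ducts and other simple epithelia, and Krt18 is also abundant in tuft cells.

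Values are normalized probe set intensities as deposited, on a linear scale, and differences are enterocyte minus stem on the log2 scale. A probe set's intensity depends on its own probes, so levels of different genes were not compared. Array medians lay between 102.4 and 110.6, and replicates correlated across genes at 0.996 in the stem and 0.992 in the enterocyte group. A background level of log2 5.93 (intensity 60.9) was set from 33 measured genes of other organs, of which 2 fell and 0 rose by limma at either the adjusted or the unadjusted p, and all 6 keratins lay above it in both groups. Atoh1, whose deleted part is not named and may lie outside the probe set, fell by 2.40 (SE 0.15, adjusted p = 0.00423 by limma), to below background in enterocytes, and Lgr5 fell by 4.64 (SE 0.36, adjusted p = 0.00584). All 12 measured enterocyte markers rose and all 11 measured Lgr5 stem cell markers fell, Lgr5 itself, by which the stem group was defined, among them. The arrays also differed in other cell types. Goblet cell markers fell in 9 of 10 cases and enteroendocrine markers in 8 of 14, so both signals were higher in the arrays of sorted cells, while lymphocyte and leukocyte markers rose in 10 of 14 and fell in 2. The goblet falls include Atoh1, the gene knocked out in the enterocyte mice. Signals of bulk RNA cannot tell fewer cells of a type from less RNA per cell.

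The keratins did not move as a block. At an adjusted p of 0.05 by limma, Krt20 and Krt8 rose, Krt7 fell, and Krt18, Krt19 and Krt23 did not pass. Over all genes 40.6% passed, 18.2% as higher and 22.4% as lower, so 3 of 6 is near the background share. The median difference of the 6 genes was 0.13, against -0.0026 over all genes. The groups did not overlap for 5 of the 6 genes, against 65.3% of all genes: enterocytes were above in 3 (30.5% of all genes) and below in 2 (34.8%). What set the genes apart from each other was the size of the difference, which ran from -1.13 for Krt7 to 5.44 for Krt20.

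**Figure D1:**
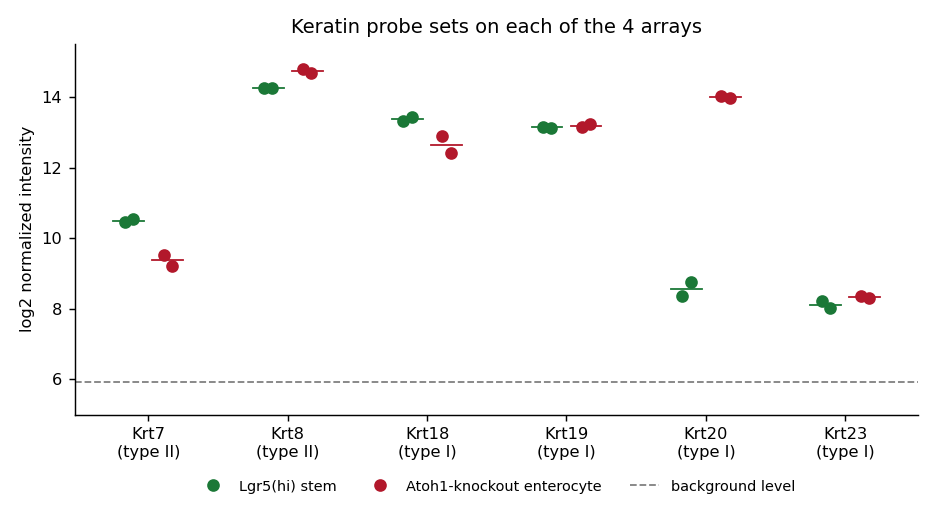
Log2 normalized intensity of each keratin (x axis) on the 2 stem and 2 enterocyte arrays, each point an array, with a line at each group's mean and a dashed line at the background level of 5.93. Krt20 goes from 8.37 and 8.75 in the stem arrays to 14.02 and 13.98 in the enterocyte arrays, Krt19 overlaps, and Krt7 differs by -1.13.

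Krt20, the type I keratin of differentiated villus cells, had the largest difference of the 6. Its intensity was 331 and 431 in stem and 16572 and 16132 in enterocyte arrays. Both enterocyte arrays were thus far above both stem arrays, and on the log2 scale the enterocyte replicates lay closer together than the stem replicates. Krt20 rose 43.3-fold (log2 difference 5.44, SE 0.16, 95% interval 4.95 to 5.92, adjusted p = 0.0026 by limma, n = 2 arrays per group). It ranked 32 from the top among 12394 genes. Without either stem array the size stayed between 5.25 and 5.63, but the adjusted p became 0.0524 and 0.0551, and no gene of the series passed in those fits (4676 and 4818 genes had an unadjusted p under 0.05 by limma). In the stem arrays Krt20 was still above background. So were all 12 measured enterocyte markers, at a summed intensity of 26043 and 23989 in the stem arrays against 200692 and 203380 in the enterocyte arrays, and their part in the Krt20 signal of the sorted cells was not tested.

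The start regions of Krt20, of its neighbour Krt23 and of Krt7 are shown because these genes rose, did not pass and fell, respectively. Krt20 and Krt23 lie next to each other among the keratin genes of chromosome 11. Each sequence is the 250 bases before the RefSeq gene start (GRCm38.p6), read on the gene's strand. Capitals mark every match to TTTAT, a core that CDX homeobox factors bind, or to its reverse complement ATAAA, which is also part of the TATA box TATAAA. The windows are chr11:99438154-99438403 on the minus strand for Krt20, chr11:99493121-99493370 on the minus strand for Krt23 and chr15:101412153-101412402 on the plus strand for Krt7.
Krt20: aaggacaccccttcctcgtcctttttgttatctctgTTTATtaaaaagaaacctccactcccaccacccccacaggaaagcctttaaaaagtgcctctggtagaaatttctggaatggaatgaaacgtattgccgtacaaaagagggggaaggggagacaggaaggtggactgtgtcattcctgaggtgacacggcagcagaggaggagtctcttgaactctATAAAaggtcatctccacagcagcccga
Krt23: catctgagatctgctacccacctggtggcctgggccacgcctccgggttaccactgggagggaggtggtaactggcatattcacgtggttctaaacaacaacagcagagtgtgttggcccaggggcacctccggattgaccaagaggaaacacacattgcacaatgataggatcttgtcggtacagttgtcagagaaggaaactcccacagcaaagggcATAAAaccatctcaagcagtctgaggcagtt
Krt7: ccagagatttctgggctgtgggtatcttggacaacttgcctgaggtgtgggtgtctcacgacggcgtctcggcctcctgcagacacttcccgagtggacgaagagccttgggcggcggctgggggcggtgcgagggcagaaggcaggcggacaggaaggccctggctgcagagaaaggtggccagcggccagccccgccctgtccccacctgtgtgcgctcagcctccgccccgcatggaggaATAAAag

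RefSeq promoter windows, from 250 bases before to 50 after the start, matched 5 of the 6 genes (not Krt19). A match to TTTAT or ATAAA was found in 4 of these 5, against 40.0% of 32851 windows of the same length. TATAAA (both strands, each match also holding ATAAA) was found in Krt20, beginning 29 bases before the start, and in Krt8, beginning 1 base before the start on the gene's strand. Among all windows 13.6% held it. GGGCGG, the GC box, was found only in the Krt7 window of the 5, with 4 matches over both strands (35.7% of all windows), and CACCC, a core bound by Kruppel-like factors, in every window but that of Krt23 (57.5% of all windows). These matches describe the letters of the windows and are no measure of factor binding.

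Krt8, the main type II keratin of the gut, rose slightly. Intensities on its brightest probe set were 19708 and 19476 in stem and 28421 and 26107 in enterocyte arrays, so the groups did not overlap and stem replicates were nearly equal. The change was 1.39-fold (log2 difference 0.48, SE 0.07, adjusted p = 0.0182 by limma). Both other Krt8 probe sets are of a type that may bind related transcripts, and they gave 0.55 and 0.43, with adjusted p of 0.0185 and 0.02 in the fit over probe sets. The direction depended on how arrays were scaled. With arrays centred on the median of 11 reference genes, which moved the median difference of all genes to -0.78, Krt8 turned to -0.30 (adjusted p = 0.0538), and with centring on their mean it was 0.17 (adjusted p = 0.234). Leaving out any 1 of the 4 arrays took its adjusted p past the threshold, to between 0.0502 and 0.127. The brightest probe set of any array read between 37814 and 41704, and whether Krt8 was near the upper limit of the scanner was not tested.

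Krt18, the type I chain that pairs with Krt8, was lower in enterocytes without passing the test. Its intensities were 10223 and 11063 in stem and 7601 and 5404 in enterocyte arrays. Both enterocyte arrays lay below both stem arrays, but they were further apart from each other than the stem arrays were. The log2 difference was -0.73 (SE 0.21, 95% interval -1.36 to -0.10, adjusted p = 0.0745 by limma). The call changed with the processing: Krt18 passed with quantile normalization (-0.86, adjusted p = 0.0228), when only genes above background were tested (adjusted p = 0.0354) and with both centrings on reference genes (-1.51 and -1.04). Between the enterocyte replicates, the summed tuft cell markers were in the same order as Krt18. Between the stem replicates, and between the groups, they went the other way. Cd24a, the brightest of the list and not past the test, read 14615 and 11662 in enterocyte and 11662 and 10646 in stem arrays. The other 14 summed to 7515 and 5210 in enterocyte and 2002 and 1496 in stem arrays (with Cd24a, 22130 and 16872 against 13664 and 12142). Of 15 measured, 11 rose and 0 fell by limma (12 rose and 0 fell at an unadjusted p under 0.05), and Dclk1, their defining kinase, was below background in the stem arrays and log2 8.97 in enterocytes. The part of tuft cells in the Krt18 signal was not tested.

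Krt19, a type I chain found in crypt and villus cells alike, had nearly the same signal in all arrays. Intensities were 9162 and 8968 in stem and 9013 and 9620 in enterocyte arrays, and the groups overlapped. The difference was 0.04 (SE 0.06, adjusted p = 0.669 by limma), with a 95% interval of -0.16 to 0.23 on the deposited scale. Centring on the median of the reference genes gave -0.74 (adjusted p = 0.00256) and centring on their mean -0.27 (adjusted p = 0.0804).

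Krt23, a type I keratin of various epithelia, differed little between the groups. It read 296 and 257 in stem and 329 and 315 in enterocyte arrays. Both enterocyte arrays were above both stem arrays, with the smaller margin against stem replicate 1. Its difference of 0.22 (SE 0.10, 95% interval -0.08 to 0.52, adjusted p = 0.183 by limma) did not pass, and it turned to -0.55 (adjusted p = 0.00627) and -0.09 with centring on the median and the mean of the reference genes.

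Krt7, a type II keratin of ducts and other simple epithelia, was the only one of the 6 that fell. Intensities were 1400 and 1490 in stem and 740 and 591 in enterocyte arrays. The stem arrays were both well above the enterocyte arrays. Krt7 fell by 1.13 on the log2 scale, 2.18-fold (SE 0.14, 95% interval -1.56 to -0.69, adjusted p = 0.0131 by limma). The direction held under each of the 16 alternatives, from -1.90 to -0.96. Several of these could not move the difference. Krt7 has a single probe set, so another choice of probe set returns the same value. So did the fits that changed only the replicate block, the estimate of the spread or the genes tested. The call was lost without stem replicate 1 (adjusted p = 0.131), without stem replicate 2 (0.136) and without enterocyte replicate 2 (0.057). Goblet cell markers, at a summed intensity of 36411 and 42775 in stem and 770 and 1334 in enterocyte arrays, were lower there, like Krt7. So were Paneth cell markers (36015 and 49588 in stem, 966 and 6369 in enterocyte arrays, with 3 of 5 called). Between the enterocyte replicates both sums went in the opposite order to Krt7, and between the stem replicates in the same order. Enteroendocrine markers (8 of 14) and Lgr5 stem cell markers (all 11 measured) also fell. The part of these cell types in the Krt7 signal was not tested. The duct and mesothelium markers Msln, Upk3b, Wt1 and Sox17 were below background in both groups, and Mmp7, which is also a Paneth cell gene, was the only one of the 5 measured that was not.

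Ratios between keratins within an array do not depend on how the arrays were scaled by a constant, and show which chains changed unequally. The log2 ratio of Krt18 to Krt8 was -0.95 and -0.82 in stem and -1.90 and -2.27 in enterocyte arrays, a difference of -1.21. Krt8 and its partner therefore moved apart by 2.31-fold. For Krt19 to Krt8 the ratio changed by -0.44 and for Krt23 to Krt8 by -0.25. Krt7, the other type II chain, changed by -1.60 relative to Krt8. The type I chain Krt20 rose by 4.96 relative to Krt8 and by 5.40 relative to Krt19, a 42.2-fold shift between type I chains. In all 6 pairs examined the stem arrays did not overlap the enterocyte arrays. The share over gene pairs in general was not computed, and 65.3% of single genes did not overlap. All pairs but Krt20 to Krt19 hold Krt8, so the pairs are not separate observations. The smallest two-sided p that an exact permutation test of 2 arrays against 2 can give is 0.333, which each pair reached (0.333 after Benjamini-Hochberg adjustment over 6 pairs), so these values are a description.

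**Figure D2:**
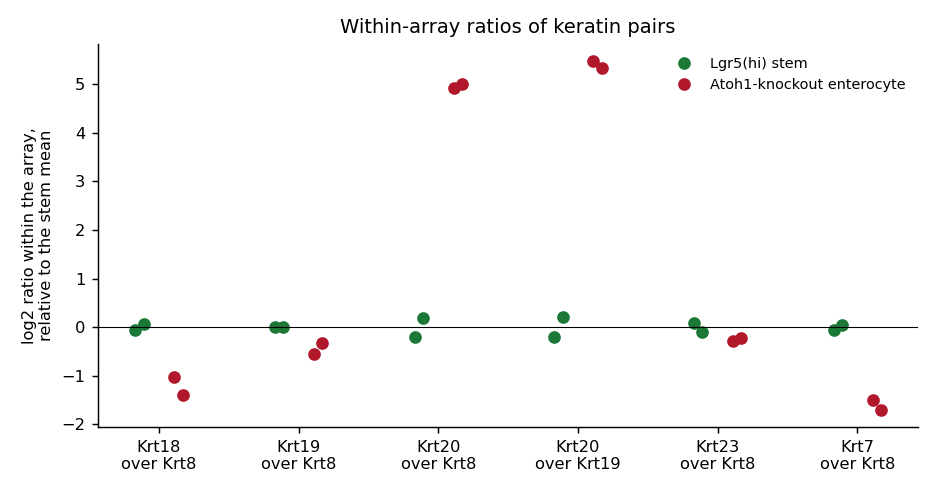
Log2 ratio of each keratin pair within each array, relative to the mean of the stem arrays; points are arrays, 2 per group. The Krt20 ratios rise by 4.96 and 5.40, and the ratios of Krt18 and Krt7 to Krt8 change by -1.21 and -1.60.

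The other 34 keratin genes measured, most of them keratins of skin, hair and stratified epithelia, gave few calls on the deposited scale. Their median difference was 0.04, 1 rose, 1 fell and 32 did not pass, and 22 lay below background in both groups. Centring on the median of the reference genes gave 0 rises and 30 falls, and centring on their mean 0 and 10. These centrings shifted all genes: of 12394 tested, 9567 fell with the median and 5563 with the mean. The list counts are therefore no result about keratins. Krt15, a type I keratin of basal cells, fell by 0.48 (SE 0.08, adjusted p = 0.0245 by limma). Its log2 level was 7.19 and 7.05 in stem and 6.61 and 6.68 in enterocyte arrays, so it was above background in all 4, and it lies next to Krt19 among the type I genes. The call was lost with the replicate number as a block (adjusted p = 0.0654) and without any 1 of the 4 arrays (0.0835 to 0.145). Krt79 was the one that rose, but it was below background in both groups. On the gene map, 3 of the 6 simple-epithelium keratins lie in the keratin cluster of chromosome 11 and 3 in that of chromosome 15, where Krt18, a type I gene, sits beside Krt8. Of the other measured keratins, 5 of 16 on chromosome 11 and 7 of 18 on chromosome 15 were above background in either group. Krt12, the neighbour of Krt20 on its other side, was below background in both groups at log2 4.79 and 5.54. Markers of squamous epithelium showed 0 rises and 0 falls of 10 measured by limma (1 and 0 at an unadjusted p under 0.05). Of these, 8 were below background in both groups. The list includes Krt4, Krt5, Krt13 and Krt14, which are already counted among the other keratins.

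**Figure D3:**
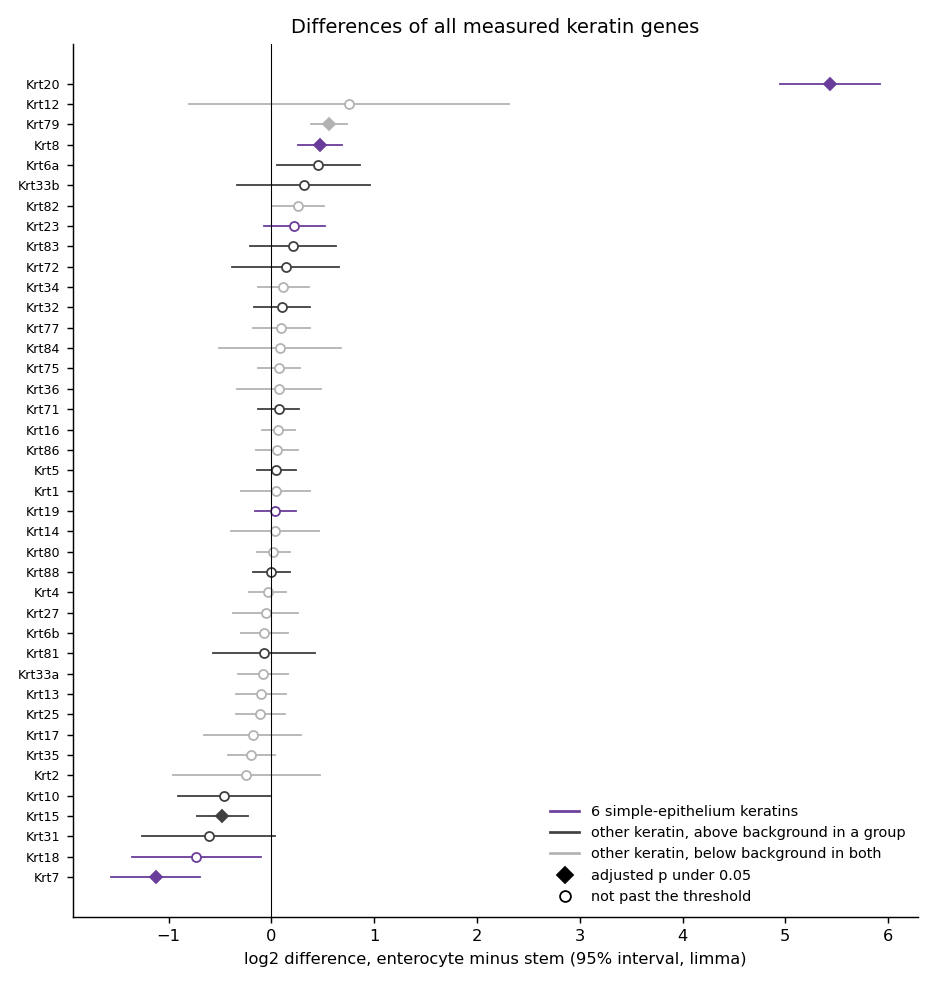
Log2 difference, enterocyte minus stem, with limma's 95% interval, for the 40 keratin genes measured, in order of size. Krt20 stands at 5.44 and the other 39 lie between -1.13 and 0.76, those below background in both groups in grey.

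Genes that anchor or accompany keratin filaments were described from lists of known members. Of 6 plakins, the linker proteins that tie keratins to junctions, 3 rose and 0 fell by limma (1 fell at an unadjusted p under 0.05; median 0.53). Plec, encoding plectin, rose 2.52-fold (1.33, SE 0.08) and Dst, encoding dystonin, 2.30-fold (1.20, SE 0.13). Desmosome genes gave 2 rises and 0 falls of 11 measured by limma (1 fall at an unadjusted p under 0.05), with a median of -0.0014. Perp, a desmosomal membrane protein, rose 4.73-fold (2.24, SE 0.11) and the cadherin gene Dsc2 2.07-fold (1.05, SE 0.12). Desmoplakin, the protein that binds keratins at the plaque, had a difference of 0.03 for Dsp (SE 0.12, adjusted p = 0.856 by limma), a gene named beyond the rule for its role. The direction of these 4 risers held under each scaling tried, although Dsc2 no longer passed with centring on the median of the reference genes (0.27, adjusted p = 0.133). The counts did depend on it: that centring gave 1 rise and 8 falls of desmosome genes and 2 rises and 3 falls of plakins, and centring on the mean gave 2 and 6 and 3 and 1. Over all 12394 genes, 9567 fell with the median and 5563 with the mean. With the mean over probe sets desmosome genes gave 4 rises and 2 falls. Without any 1 of the 4 arrays neither list had a call.

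Adaptors and signalling partners went both ways. Among 12 keratin chaperones, adaptors and 14-3-3 proteins, 2 rose and 4 fell (median 0.16), and all 6 that passed were 14-3-3 genes, whose products bind phosphorylated keratins. Ywhae fell, with a difference of -1.32 (SE 0.13), and so did Ywhab, with -0.88 (SE 0.10). Ywhah rose by 0.76 (SE 0.07) and Ywhaz by 0.56 (SE 0.07), although these turned to -0.01 and -0.22 with centring on the median of the reference genes. Ywhaz is itself among the reference genes, so that centring is no independent check of it. Both stem arrays gave Ywhaz the same value, 5865, which lowers the spread behind its SE. With the dimmest probe set of each gene in place of the brightest, 1 of the list rose and 0 fell. Of 13 other intermediate filament genes 1 rose and 4 fell (median -0.03). Vim, encoding the vimentin of mesenchymal and blood cells, fell by 2.26 (SE 0.23) to below background in enterocytes, at least 2.94-fold lower. Lmnb1, the nuclear lamin B1, fell 3.70-fold (-1.89, SE 0.10). Lmna, encoding lamins A and C, rose 1.46-fold (0.54, SE 0.07), a direction that turned to -0.23 with centring on the median of the reference genes. With the mean or median over probe sets, or the dimmest probe set, the list had 0 rises, so Lmna was not called. Most leukocyte markers went against Vim: 10 of 14 rose, Ptprc and Gzma among them, and 2 fell, Lyz2 and Cd68. Their part in the Vim signal was not tested. Centring on the median of the reference genes gave 0 rises and 8 falls of the adaptor list and 0 and 12 of the other intermediate filaments, and centring on their mean 1 and 4 and 0 and 7. Among all 12394 genes the falls numbered 9567 and 5563. Of 12 stromal and endothelial markers, 10 were below background in both groups and 0 passed by limma (1 rose at an unadjusted p under 0.05).

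**Figure D4:**
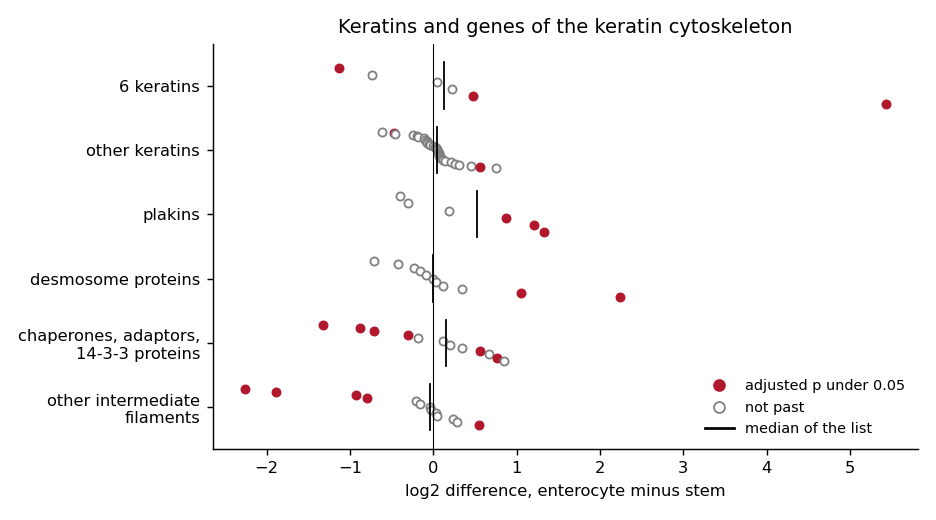
Log2 difference, enterocyte minus stem, of each gene in the 6 keratins and the lists of related genes; filled points passed an adjusted p of 0.05 by limma and the black line is the list's median. Krt20, at 5.44, lies beyond every gene of the other lists, which run from -2.26 to 2.24.

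General epithelial genes and gut transcription factors put the keratins in context. Of 13 genes of simple epithelia 6 rose and 3 fell (median 0.33). Ezr, which links the membrane to actin, rose 5.48-fold (2.45, SE 0.08) and the cadherin gene Cdh17 3.41-fold (1.77, SE 0.14), while the epithelial regulators Grhl2 and Esrp2 fell, with differences of -2.04 (SE 0.08) and -1.15 (SE 0.17). Epcam, the pan-epithelial surface marker, rose by 0.74 (SE 0.06), a change like that of Krt8 in that it turned to -0.04 with centring on the median of the reference genes. Of 13 measured transcription factors 3 rose and 5 fell (median 0.08). Hnf4g rose 10.3-fold (3.36, SE 0.40) and Klf4 2.52-fold (1.34, SE 0.13), and Foxa3 and Foxa2 fell, with differences of -2.98 (SE 0.15) and -1.99 (SE 0.26). Cdx1 and Cdx2, which encode CDX homeobox factors, fell, with differences of -0.93 (SE 0.14) and -1.02 (SE 0.11). They are named beyond the rule because such factors bind a TTTAT core, and binding to the marked matches was not tested. Centring on the median of the reference genes gave 3 rises and 8 falls of the epithelial genes and 2 and 10 of the factors, and centring on their mean 5 and 5 and 3 and 6. Falls among all 12394 genes were 9567 and 5563.

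The genes with the pattern most like each called keratin were found by the Euclidean distance between log2 values centred on each gene's mean over the 4 arrays, among 8361 genes above background in either group. Closest to Krt20 were Lgals3, encoding galectin 3 (distance 0.20, log2 difference 5.62), Cyp3a11, a drug-metabolizing cytochrome P450 (0.23, 5.31), and Fn1, encoding fibronectin (0.26, 5.68). Closest to Krt8 were Gpr27 (0.02, 0.47), Cdipt (0.02, 0.49) and Rnf111 (0.03, 0.46). Krt7 was closest to Mrm3 (0.04, -1.12), D10Wsu102e (0.05, -1.16) and Pwp2 (0.05, -1.18). Gpr27 and Rnf111 had identical values in both stem arrays, as did 1268 genes, which lowers the spread seen between replicates. In the enterocyte arrays 1048 genes had identical values.

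**Figure D5:**
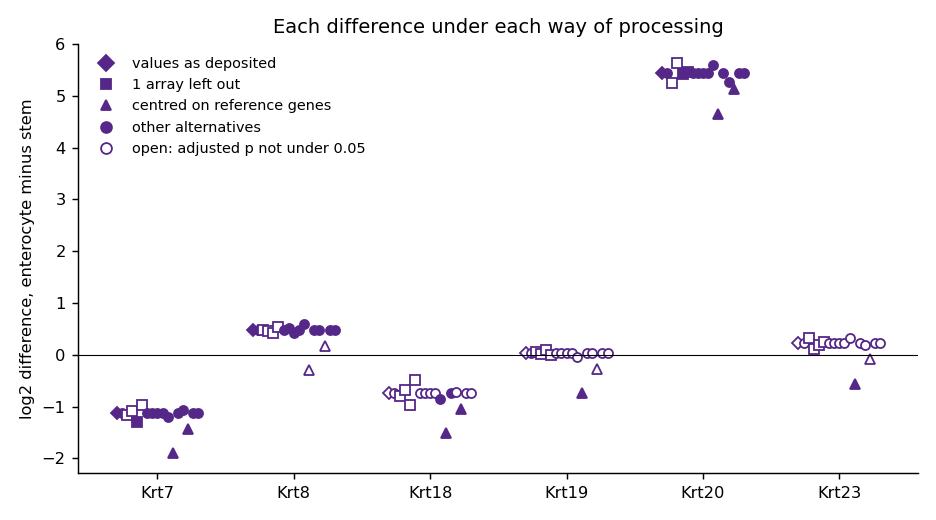
Log2 difference of each keratin, enterocyte minus stem, as deposited (diamond) and under 16 alternatives, filled where the adjusted p was under 0.05 by limma. Krt20 stays between 4.66 and 5.63 and Krt7 between -1.90 and -0.96, while Krt19 and Krt23 fall below 0 with both centrings on reference genes (triangles) and Krt8 with centring on their median. Krt19 also falls below 0 with quantile normalization (-0.051) and without enterocyte replicate 2 (-0.0082).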

How the data were processed

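The authors deposited normalized probe set intensities on a linear scale, from 7.93 to 41704, with RMA named as the tool per the submitters' processing notes, without a version. The set of arrays normalized together is not stated there. Intensities were converted to log2 without a pseudocount. Of 22690 probe sets, 20393 had exactly 1 symbol in the platform annotation and 691 several, and 1606 were not listed. The probe set with the highest mean stood for each of 12394 genes. Names were checked against RefSeq (GRCm38.p6): 20364 probe sets matched by Entrez identifier and 0 symbols changed. Group differences came from limma 3.58.1 (R 4.3.3; lmFit, then eBayes; two-sided; 2 residual degrees of freedom), and genes with a Benjamini-Hochberg adjusted p under 0.05, taken over every gene tested, were called. The steps were tested on simulated data. The background level is the 90th percentile of the mean log2 levels of genes of other organs. A fold to a group below it is given as "at least", with dim arrays raised to it. The rule for named genes took all 6 keratins, up to 6 other keratins past the threshold and above background, and up to 2 genes in each direction per list. Epcam, Cdx1, Cdx2 and Dsp were added. Members, lists, tests and alternatives were chosen with earlier results of these data known. The columns without a sample numbered 0.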

Additional observations from a re-analysis of the deposited data

How the results depend on the processing

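The differences of the keratins described here and of Krt15 were recomputed under 16 alternatives. So were the counts of calls among keratins, the lists of related genes, epithelial genes, transcription factors and all genes. Of the alternatives, centring on the mean of the reference genes was chosen after seeing the data. The keratin pairs were run under only some of them. Counts and sums of cell type markers, and the nearest patterns, were not recomputed. Krt20 and Krt7 kept their direction in all 16, though several of these could not move a gene with a single probe set. The labels number the replicates 1 and 2 in both groups but do not say that numbers pair samples. The deviations of same-numbered arrays correlated at 0.05 across genes, which with 2 arrays per group cannot settle whether the numbers pair samples. With the replicate number as a block, 2 keratins rose and 1 fell, as without the block, and Krt15 was no longer called, leaving 0 falls among the other keratins. It moved no other count here by over 1.5 times.

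Leaving out 1 array at a time, with the lone array of a group assumed to vary like the others, gave 0 to 1 of the 6 keratins higher and 0 to 1 lower. Without stem replicate 1 and without stem replicate 2 no gene was called (0 genes). Without enterocyte replicate 1 and 2 1722 and 1425 were. Krt19 ranged from -0.0082 (without enterocyte replicate 2) to 0.086. The counts of the 14-3-3 list lay between 0 and 2 higher, and of the transcription factors between 0 and 2 lower, with 0 in the other direction. For simple epithelium genes both counts were 0 to 1, and for other keratins, plakins, desmosome genes and other intermediate filaments each was 0. The cause was not tested, beyond the 1 residual degree of freedom left.

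Centring on the median of the reference genes reversed Krt8 (-0.30), Krt19 (-0.74) and Krt23 (-0.55), and centring on their mean reversed Krt19 (-0.27) and Krt23 (-0.086). Of the 11 reference genes, 5 rose and 2 fell by limma, so neither centring rests on stable genes. Quantile normalization gave -0.051 for Krt19. With median centring 1 of the 6 keratins was higher and 4 lower, and with mean centring 1 and 2. Over all 12394 genes median centring gave 1174 higher and 9567 lower, and mean centring 1835 and 5563. Quantile normalization and testing only genes above background each gave 2 lower keratins. The pair differences kept their direction in the 8 alternatives run for them. Both centrings subtract a constant from each array, so they cannot change these ratios and are no check of them. Krt20 and Krt19 have a single probe set each, so the choice of probe set could not move their pair either. With quantile normalization Krt19 minus Krt8 moved to -0.64 and Krt7 minus Krt8 to -1.80.

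With median centring, higher and lower counts were 0 and 30 for other keratins, 2 and 3 for plakins, 1 and 8 for desmosome genes, 0 and 8 for the 14-3-3 list, 0 and 12 for other intermediate filaments, 2 and 10 for transcription factors and 3 and 8 for simple epithelium genes. With mean centring they were 0 and 10, 3 and 1, 2 and 6, 1 and 4, 0 and 7, 3 and 6, and 5 and 5, in the same order. With the mean over probe sets, plakins had 1 fall, desmosome genes 4 rises and 2 falls, the 14-3-3 list 2 falls and other intermediate filaments 0 rises. The median over probe sets gave the same counts, and 4 rises of the 14-3-3 list. The dimmest probe sets gave 1 fall of plakins and of desmosome genes, 1 rise and 0 falls of the 14-3-3 list, 0 rises of other intermediate filaments and 1 rise of transcription factors. Without probe sets that may cross-hybridise, desmosome genes had 1 fall and the 14-3-3 list 2. Desmosome genes had 2 falls with quantile normalization, and 1 fall among genes above background and with an offset of 50. The cause was not tested for these counts. The number of arrays limits the precision throughout.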
